A study of Mus musculus with 2 samples.

Results

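The data are the signals of 10 innate immune genes of macrophages and other myeloid cells in the palate of mouse fetuses: C1qa, C1qb, Csf1r, Cd14, Cd68, Mrc1, Tyrobp, Fcer1g, S100a8 and S100a9. They were taken by name, as every probe set that the platform annotation gives to exactly 1 of these genes, which gave 14 probe sets for 10 of the 18193 genes with a listed probe set. The palates were taken at E18.5 (embryonic day), and each sample was hybridised to 1 Affymetrix expression array. One array held palate RNA of BALB/c fetuses labelled Myf5-/-:MyoD-/-, that is, null for 2 transcription factors (MyoD is encoded by Myod1) that commit cells to skeletal muscle, and the other held palate RNA of wild-type BALB/c fetuses. Whether RNA came from 1 fetus or from pooled fetuses, how the alleles were made and the sex of the fetuses are not stated in the labels. With 1 array per genotype no test was possible, no p-value is given, and every difference is between these 2 arrays.

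Tissue macrophages of the fetus arise from yolk sac and liver precursors and settle in nearly every organ, where they clear dying cells and shape vessels and matrix. They depend on signalling through the receptor encoded by Csf1r, take up material through scavenger and mannose receptors, and make the C1q proteins that start the classical complement cascade. Many of their surface receptors cannot signal alone and pair with the adaptors encoded by Tyrobp and Fcer1g. S100a8 and S100a9 encode the subunits of calprotectin, which is abundant in neutrophils and monocytes and is also made by stressed keratinocytes. Osteoclasts share Csf1r, Tyrobp and Fcer1g with macrophages, and mast cells share Fcer1g.

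Neither targeted gene told the arrays apart: Myod1 had scaled signals of 1663 on the array labelled null and 1938 on the wild-type array (its other probe set had a log2 ratio of 0.09), and Myf5 had 531 on the array labelled null and 517 on the wild-type array. Whether their probe sets lie in the altered parts of the genes is not stated, so the sample labelled Myf5-/-:MyoD-/- is called the null-labelled array or palate throughout. All 12 skeletal muscle markers had a log2 ratio below 0, with a summed signal of 92710 on the null-labelled array and 177178 in wild type, and all 12 were above the floor on at least 1 array. All 10 neuron markers were above 0, with summed signals of 124563 in null-labelled and 57245 in wild-type palate. Xist gave 16947 in null-labelled and 33813 in wild-type palate, and the Y-linked Eif2s3y gave 2794 in null-labelled and 10.8 in wild-type palate. The part of these differences in the immune gene values was not tested, and a difference in sex cannot be told apart from genotype here. In bulk tissue, fewer cells of a type and less RNA per cell cannot be told apart either.

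Log2 ratios below are the null-labelled array over the wild-type array, after scaling and with signals under 287 (the 40th percentile, called the floor) set to that value. If only 1 of the arrays lay under the floor, its fold is a lower bound. A gene is represented by its probe set of highest mean log2 signal, and other probe sets are given beside it, singly for the 10 genes and mostly by their median for further genes. Across genes with several probe sets, the log2 ratios scattered within a gene with a pooled SD of 0.47, from 9142 probe sets of 3658 genes, which covers probe effects and not differences between animals.

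Most of the 10 genes lay within 2-fold between the arrays, and the 3 that passed 2-fold went both ways. C1qa, a chain of complement C1q, and S100a9, a calprotectin subunit, were lower by at least 2.94-fold and 2.81-fold on the null-labelled array, and Cd14, the co-receptor for bacterial lipopolysaccharide, was 2.20-fold higher. Over the 10 genes the median log2 ratio was -0.38, against 0 over all 18193 genes, with 7 genes below 0 and 3 above. None of the 10 was under the floor on both arrays, while 3804 of all genes were and count as 0. Past 2-fold, 2 of the 10 genes were lower and 1 was higher, beside 2.83% and 2.41% of all genes. Of all genes 35.2% were below 0 and 43.9% above, the rest being at the floor on both arrays. The counts of the 10 rest on 1 or 2 genes in each direction.

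The level of the signals bears on these calls. C1qa and S100a9 were under the floor on the null-labelled array, and both reached the 60th percentile of signals (658) on the wild-type array alone, so a filter on the brighter array keeps them because they differ. Their folds are then set by the floor. Among the 7 genes whose mean over both arrays reached that percentile, none was lower by 2-fold and Cd14 alone was higher, beside 2.97% and 2.82% of the 10581 genes that passed the same filter. Fcer1g did not reach it on either array.

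**Figure D1:**
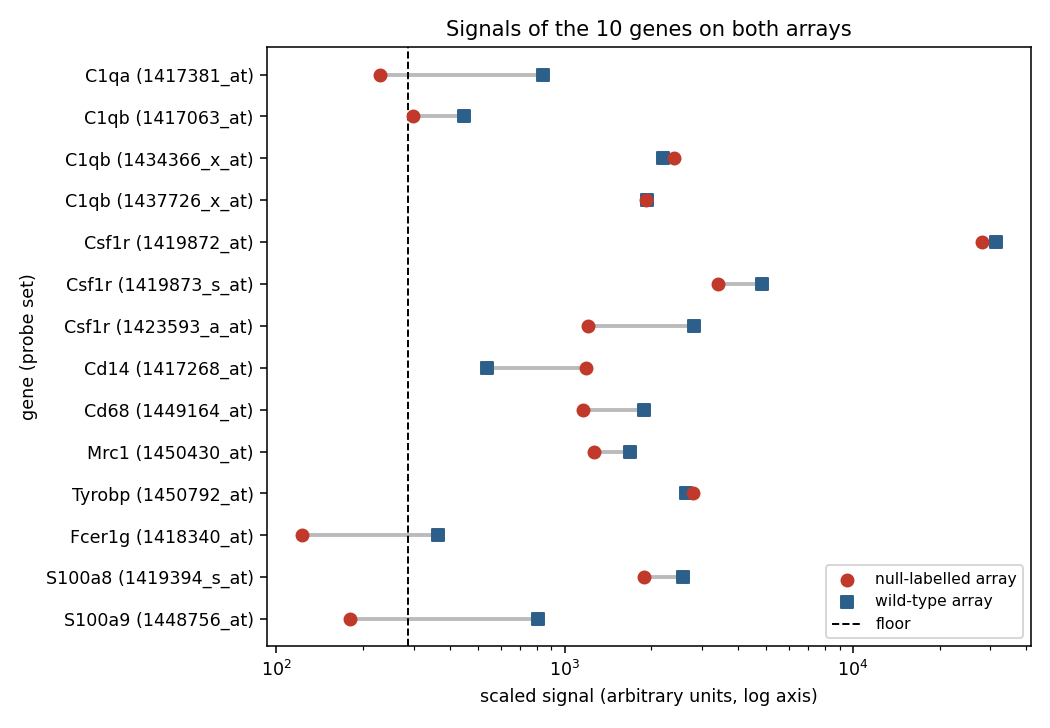
Scaled signal (arbitrary units, log axis) of each of the 14 probe sets on the null-labelled array (circles) and the wild-type array (squares), with the floor of 287 as a dashed line and a grey line joining the 2 values of a probe set. C1qa, Fcer1g and S100a9 cross the floor, Cd14 is the gene with the clearly brighter null-labelled array, and the C1qb probe sets 1434366_x_at and 1437726_x_at and that of Tyrobp nearly coincide.

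**Figure D2:**
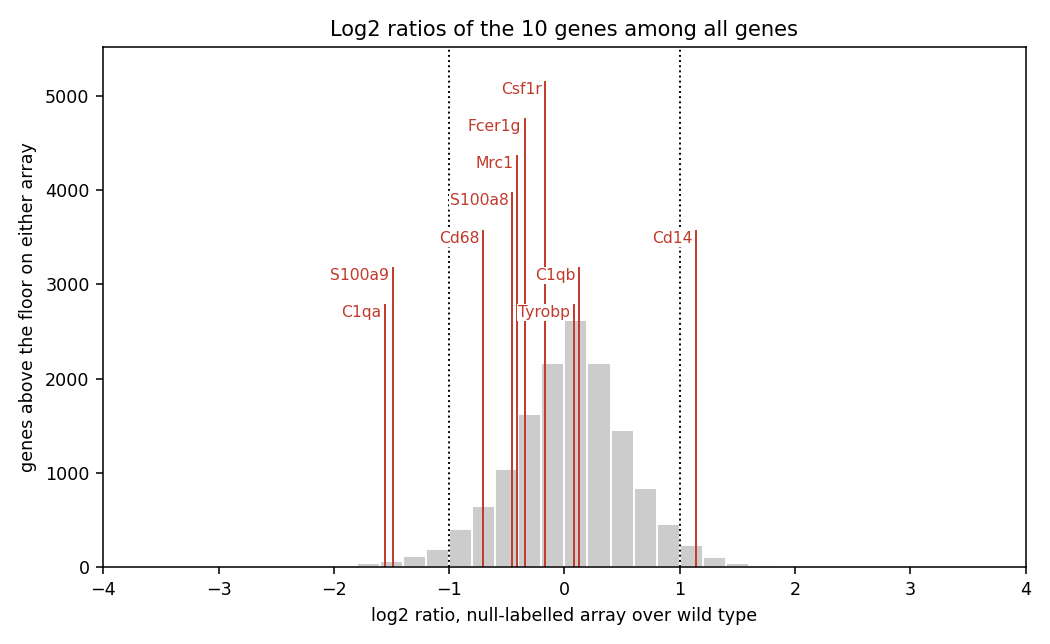
Log2 ratios (null-labelled array over wild type) of the 10 genes, each by its representative probe set (red lines), over the histogram of 14389 genes above the floor on at least 1 array; 9 genes lie beyond the axis. Dotted lines mark 2-fold. C1qa and S100a9 lie in the lower tail, Cd14 in the upper tail and the other 7 between the dotted lines.

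The C1q genes encode the 3 chains of the recognition molecule of classical complement, which binds antibody complexes and dying cells and is made mainly by macrophages. In the RefSeq gene order C1qb, C1qc and C1qa are consecutive coding genes on chromosome 4. C1qa had a signal of 229 on the null-labelled array and 844 in wild type, a log2 ratio of -1.56 with the floor, and 0.945% of the genes above the floor had a lower ratio. C1qb was read by 3 probe sets with unlike values. Probe set 1417063_at gave 298 in null-labelled and 450 in wild-type palate, with a log2 ratio of -0.59 at signals close to the floor. Probe sets 1434366_x_at and 1437726_x_at, whose suffix marks probes that may bind other transcripts, gave 2398 in null-labelled against 2190 in wild-type palate, and 1911 in null-labelled against 1924 in wild-type palate. Their log2 ratios of 0.13 and -0.01 are smaller than the SD between probe sets and changed sign with the scaling. C1qc, the third chain, had signals of 622 in null-labelled and 556 in wild-type palate and a log2 ratio of 0.16. Beside C1qa, 1 of the 3 C1qb probe sets was thus lower by more than the SD between probe sets, and C1qc was not lower. That C1qb probe set was dimmer than those from which the SD was taken.

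The promoter of C1qb is shown because PU.1, the master transcription factor of macrophages, binds motifs with the core GAGGAA, and the gene stands for the C1q cluster. These are the 250 bases before the start in RefSeq (GRCm38.p6, chr4:136886201-136886450, minus strand), printed 5′ to 3′ in the direction of the gene with the core on either strand in capitals.
C1qb: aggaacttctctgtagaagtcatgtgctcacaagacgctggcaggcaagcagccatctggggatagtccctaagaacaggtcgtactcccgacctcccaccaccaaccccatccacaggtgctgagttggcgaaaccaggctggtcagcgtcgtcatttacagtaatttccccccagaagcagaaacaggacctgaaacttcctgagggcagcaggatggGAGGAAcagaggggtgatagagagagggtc
The core was found once, 30 bases before the start. Promoters were listed for 6 of the 10 genes. GAGGAA on either strand was found in 4 of those 6 (C1qb, Cd68, Mrc1 and S100a8, with 7 matches in all), and in 23.3% of 32851 promoter windows of the same length. A match of these letters is a description and not a binding site. Spi1, which encodes PU.1, had signals of 526 in null-labelled and 643 in wild-type palate, a log2 ratio of -0.29.

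Other complement genes also lay on both sides of 0. C1s1, a protease that C1q activates, had signals of 2221 in null-labelled and 2118 in wild-type palate, and C1ra, its partner protease, 413 in null-labelled and 353 in wild-type palate. Serping1, the inhibitor of both proteases, had signals of 1649 in null-labelled and 2750 in wild-type palate, a log2 ratio of -0.74. Of 30 complement genes besides C1qa and C1qb, those above included, 8 were under the floor on both arrays, 1 was lower and 1 higher by 2-fold or more, and their median log2 ratio was 0. The lower gene was Cd46, which encodes a complement regulator, at least 3.36-fold (266 in null-labelled and 964 in wild-type palate, the former under the floor). Cr1l, another complement regulator gene, had signals of 3558 in null-labelled and 3528 in wild-type palate, a log2 ratio of 0.01. Its other probe sets were under the floor on both arrays, and it was named after its values were seen. The higher gene was C3ar1, the receptor for a C3 fragment, at least 2.10-fold (601 in null-labelled and 253 in wild-type palate), named after its values were seen, and its other probe sets had a median of 0.14. Cfp, properdin of the alternative pathway, had a log2 ratio of -0.95, with its other probe set under the floor on both arrays, and Cd55, which speeds the decay of the convertases, had 0.46, with a median of 0.09 in its other probe sets.

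Csf1r encodes the receptor tyrosine kinase for the macrophage growth factors CSF1 and interleukin 34. All 3 of its probe sets were below 0 on the scale used here, but their sizes differed widely. Probe set 1423593_a_at gave 1203 on the null-labelled array and 2814 in wild type, 2.34-fold lower, a ratio that 2.07% of the genes above the floor fell below. Probe set 1419873_s_at gave 3405 in null-labelled and 4823 in wild-type palate, a log2 ratio of -0.50. Probe set 1419872_at, the brightest, gave 28053 in null-labelled and 31450 in wild-type palate, a log2 ratio of -0.16 that turned to 0.15 with scaling to the reference genes' median signal. The platform annotation gives an accession for 1423593_a_at and none for the other two. Counted by its brightest probe set Csf1r lay within 2-fold, and by 1423593_a_at it did not.

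Of the ligands, Csf1 was read by 4 probe sets, with log2 ratios of -0.08, -0.51, -1.36 (a bound) and -0.50. The brightest gave 1290 in null-labelled and 1368 in wild-type palate, and the one with the largest difference gave 275 in null-labelled and 735 in wild-type palate. Il34 was under the floor on both arrays (269 in null-labelled and 220 in wild-type palate). The 3 Csf1r and 4 Csf1 probe sets thus all gave ratios below 0 in the scaling used here, and 1 of each gene passed 2-fold. With scaling to the reference genes' median signal the brightest Csf1 probe set, like that of Csf1r, turned above 0, to 0.23.

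Cd14 encodes a membrane protein of monocytes and macrophages that hands lipopolysaccharide to the receptor complex of Tlr4 and Ly96. It was the 1 gene of the 10 that was clearly brighter on the null-labelled array, with signals of 1188 in null-labelled and 539 in wild-type palate and a log2 ratio of 1.14. Of the genes above the floor, 98.2% had a lower ratio. It was read by 1 probe set. Its receptor partners did not share the difference: Tlr4 gave 428 in null-labelled and 391 in wild-type palate, a log2 ratio of 0.13, with a median of 0.05 in its other probe sets, and Ly96 gave 444 in null-labelled and 525 in wild-type palate, a log2 ratio of -0.24. Tlr2, which also uses CD14, gave 541 in null-labelled and 769 in wild-type palate, a log2 ratio of -0.51.

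In the list of Toll-like receptor signalling genes other than Cd14, 27 had a probe set, 4 were under the floor on both arrays, 1 was lower and none higher by 2-fold or more, and the median was 0. Tnf, an inflammatory cytokine, was the lower gene (154 in null-labelled and 585 in wild-type palate, at least 2.04-fold; named after its values were seen). Il1b, the cytokine interleukin 1 beta, had signals of 711 in null-labelled and 356 in wild-type palate, 1.99-fold higher. Irf3, a transcription factor downstream of Tlr3 and Tlr4, had -0.84 with a median of -0.26 in its other probe sets, and Irak2, a kinase of the pathway, had -0.73.

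Cd68 and Mrc1 encode proteins of uptake. Cd68, a glycoprotein of macrophage lysosomes, had signals of 1160 on the null-labelled array and 1889 in wild type, a log2 ratio of -0.70. Mrc1, the mannose receptor CD206 of resident macrophages and some endothelium, had signals of 1268 in null-labelled and 1686 in wild-type palate, a log2 ratio of -0.41, which is below the SD between probe sets. Both were lower under every scaling tried, and neither reached 2-fold.

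The Mrc1 promoter held the most matches to the PU.1 core among the 6 and is shown for that reason (GRCm38.p6, chr2:14229164-14229413, plus strand, 5′ to 3′, the core on either strand in capitals).
Mrc1: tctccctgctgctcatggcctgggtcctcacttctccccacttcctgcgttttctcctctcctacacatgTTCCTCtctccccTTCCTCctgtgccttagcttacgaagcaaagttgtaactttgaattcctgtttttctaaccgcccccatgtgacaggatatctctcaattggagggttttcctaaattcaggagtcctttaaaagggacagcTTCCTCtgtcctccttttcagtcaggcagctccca
All 3 matches read TTCCTC on the printed strand, with their first bases 180, 167 and 35 bases before the start.

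Among 26 other genes of scavenger receptors, engulfment and lysosomes, all above the floor on at least 1 array, 2 were lower and none higher by 2-fold or more, with a median log2 ratio of -0.04. Ctsz, the lysosomal protease cathepsin Z, had signals of 5409 in null-labelled and 11374 in wild-type palate, 2.10-fold lower, and -0.85 as the median of its other probe sets. Mrc2, the collagen uptake receptor of fibroblasts, had 2364 in null-labelled and 4734 in wild-type palate, just past 2-fold lower, while its other probe set was under the floor on both arrays. Tyro3, a receptor for dying cells, had -0.79 (-0.16 in its other probe set), and Scarb1, a lipoprotein receptor, 0.71 (a median of 0.28 in its other probe sets). In all, 14 of these genes were below 0 and 12 above.

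Tyrobp and Fcer1g encode small adaptors with an immunoreceptor tyrosine-based activation motif (ITAM), which the kinase Syk reads once it is phosphorylated. Tyrobp, which pairs with Trem2 and related receptors, gave 2788 on the null-labelled array and 2633 in wild type, a log2 ratio of 0.08 that turned to -0.06 with scaling to the reference genes' median ratio. Fcer1g, the common gamma chain of Fc receptors, gave 123 in null-labelled and 364 in wild-type palate. It was under the floor on the null-labelled array, so its difference was at least 1.27-fold, and without a floor it would read -1.57 on the log2 scale. Tyrobp was thus well above the floor and near equal on the arrays, and Fcer1g was close to the floor or under it.

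Of the receptors that use these adaptors, Trem2 (122 in null-labelled and 397 in wild-type palate) and Trem1 (76.4 in null-labelled and 407 in wild-type palate) were under the floor on the null-labelled array, with differences of at least 1.38-fold and at least 1.42-fold, and the other probe set of each was under the floor on both arrays. Fcgr1, the high-affinity receptor for immunoglobulin G, gave 450 in null-labelled and 373 in wild-type palate (a log2 ratio of 0.27, with 0.71 in its other probe set), and Fcgr4 gave 334 in null-labelled and 354 in wild-type palate. Fcgr3, which needs the gamma chain, gave 694 in null-labelled and 909 in wild-type palate, a log2 ratio of -0.39. Fcgr2b, the inhibitory Fc receptor that needs no adaptor, gave 734 in null-labelled and 1455 in wild-type palate, a log2 ratio of -0.99. Of its 4 other probe sets 3 were under the floor on both arrays. The remaining one went the other way, with 332 in null-labelled and 96.2 in wild-type palate, a log2 ratio of 0.21 (a bound). Syk gave 758 in null-labelled and 601 in wild-type palate, a log2 ratio of 0.33, with a median of 0.39 in its other probe sets.

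Of 25 Fc receptor and ITAM signalling genes other than these adaptors, 6 were under the floor on both arrays, 1 was lower and 1 higher by 2-fold or more, and the median was 0. Sirpa, an inhibitory receptor of macrophages and neurons, was 2.23-fold lower (520 in null-labelled and 1157 in wild-type palate), with 0.39 as the median of its other probe sets. Oscar, an osteoclast receptor that signals through the gamma chain, was at least 2.07-fold higher (595 in null-labelled and 33.2 in wild-type palate), with 0.55 in its other probe set, and was named after its values were seen. Ptpn6, a phosphatase of blood cells, had -0.47 with 0.37 in its other probe set.

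S100a8 and S100a9 lie next to each other on chromosome 3 in the RefSeq gene order and encode partners of the same protein complex. Both were lower on the null-labelled array under every scaling tried, by unlike amounts. S100a8 had signals of 1880 in null-labelled and 2570 in wild-type palate, a log2 ratio of -0.45, by a probe set whose suffix marks several transcripts. S100a9 had 180 in null-labelled and 806 in wild-type palate, at least 2.81-fold lower, and 1.12% of the genes above the floor had a lower ratio. The 4 other neutrophil genes named here were mostly lower, but of the 17 genes in their list 5 were below 0 and 7 above. Ngp, a granule protein of immature neutrophils, had signals of 1480 in null-labelled and 2434 in wild-type palate, a log2 ratio of -0.72, and Stfa3 had -0.55. Ltf, lactoferrin, which glands also secrete, had 9383 in null-labelled and 4880 in wild-type palate, a log2 ratio of 0.94, and Elane, neutrophil elastase, had -0.97 and was under the floor on the null-labelled array (named after its values were seen).

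The promoters of this pair are shown since the genes are neighbours whose signals were both lower (GRCm38.p6, 250 bases before each start, 5′ to 3′ in the direction of each gene). S100a8 is at chr3:90668821-90669070 on the plus strand and S100a9 at chr3:90695722-90695971 on the minus strand, and capitals mark GAGGAA on either strand and the TATA box letters TATAAA.
S100a8: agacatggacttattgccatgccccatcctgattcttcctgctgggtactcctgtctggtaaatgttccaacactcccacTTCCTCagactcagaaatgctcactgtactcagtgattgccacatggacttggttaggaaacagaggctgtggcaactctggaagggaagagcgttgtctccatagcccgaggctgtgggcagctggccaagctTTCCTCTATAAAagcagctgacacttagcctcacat
S100a9: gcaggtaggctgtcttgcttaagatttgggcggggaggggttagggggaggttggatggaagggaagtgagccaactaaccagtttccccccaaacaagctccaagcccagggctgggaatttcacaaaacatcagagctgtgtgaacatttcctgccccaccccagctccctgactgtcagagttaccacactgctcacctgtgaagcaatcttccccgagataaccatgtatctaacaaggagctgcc
S100a8 held 2 PU.1 cores, with first bases 170 and 36 bases before the start, the second directly followed by the TATA letters. Those letters, on either strand, were found in 12.4% of the 32851 windows and in 1 of the 6 promoters. Neither was found in the S100a9 window.

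Among 17 neutrophil genes other than this pair, 5 were under the floor on both arrays and none passed 2-fold, with a median of 0 and a summed signal of 46426 on the null-labelled array and 42389 in wild type. Ltf sets the order of these sums, which without it were 37042 in null-labelled and 37510 in wild-type palate. Of the 12 genes in the list of other S100 genes, which counts the binding protein gene S100pbp, none passed 2-fold. S100a14, an epithelial member, had -0.93, S100a4, found in fibroblasts and leukocytes, had -0.65, and S100a10, the annexin A2 partner, had 0.63 with -0.08 as the median of its other probe sets. Of 7 epithelial markers (Krt4, Krt5, Krt13, Krt14, Epcam, Cdh1 and Trp63) 5 were below 0 and 2 above. Of the 7, 2, or 28.6%, were lower by 2-fold or more, beside 2.83% of all genes. The summed signal of the 7 markers was 92102 in null-labelled and 116418 in wild-type palate. Their ratios ran between -2.25 for Krt4 and 0.85 for Epcam, whose other probe set had -1.42, and their part in the S100a8 and S100a9 values was not tested.

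Macrophage markers outside the 10 genes were present and lay on both sides of 0. Of 30 with a probe set, 6 were under the floor on both arrays (Itgam, Aif1, Timd4, Marco, Siglec1 and Cybb), 2 were lower and none higher by 2-fold or more. Their median log2 ratio was 0, with 10 below 0 and 14 above, and their summed signal was 105382 on the null-labelled array and 94462 in wild type. The order of these sums rests on Lyz1, the gene of largest difference in signal, without which they were 66907 in null-labelled and 69696 in wild-type palate. Mpeg1, a pore-forming protein of macrophages, had signals of 735 in null-labelled and 1715 in wild-type palate and was 2.33-fold lower. Ccr2, the chemokine receptor of monocytes, was at least 2.15-fold lower (223 in null-labelled and 617 in wild-type palate), with a median of 0.14 in its other probe sets, and was named after its values were seen. Adgre1, which encodes the F4/80 antigen, had 1878 in null-labelled and 3096 in wild-type palate, a log2 ratio of -0.72, and Cx3cr1, the fractalkine receptor, had -0.74, with its other probe set under the floor on both arrays. Lyz1, a lysozyme gene with the near-identical copy Lyz2 that its probes may also read, had the highest ratio, 0.64, with a median of 0.20 in its other probe sets. Lyz2, named as that copy, gave 3326 in null-labelled and 3268 in wild-type palate.

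**Figure D3:**
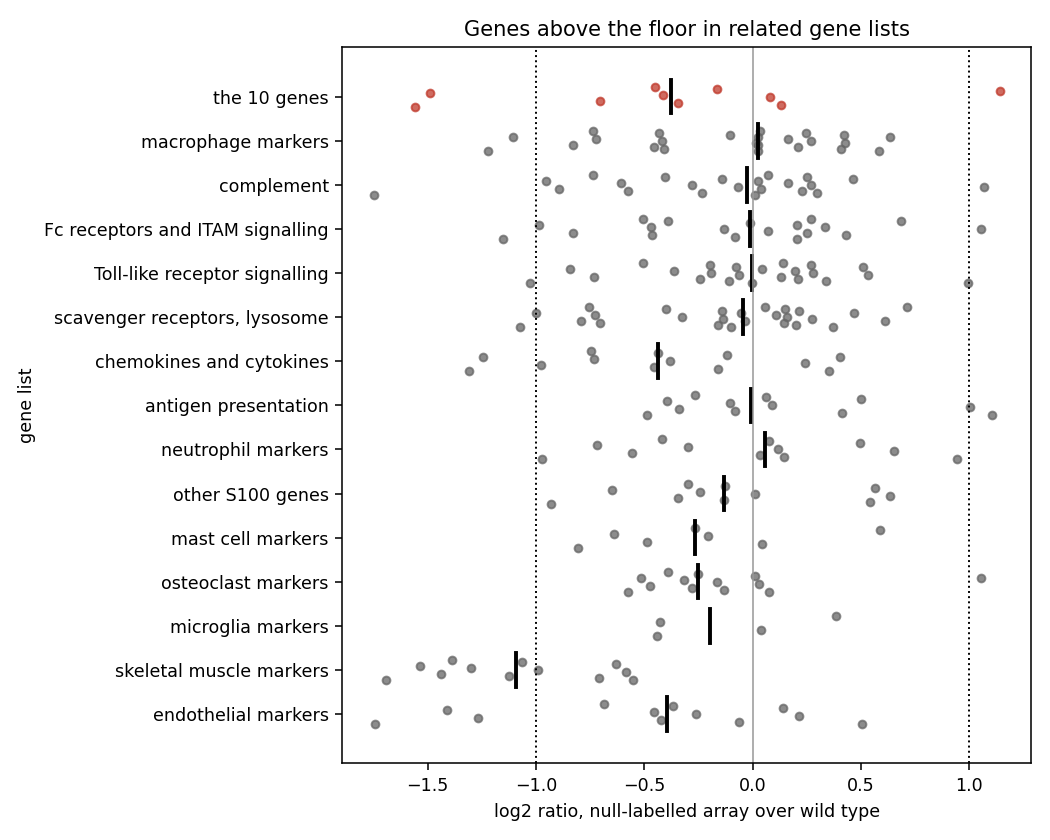
Log2 ratios (null-labelled array over wild type) of single genes above the floor on at least 1 array, by gene list, with a black bar at the median of the points shown and dotted lines at 2-fold. The medians of the macrophage, complement, Fc receptor and Toll-like receptor lists lie near 0, the 10 genes are at -0.38 and the skeletal muscle markers at -1.09.

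The list of chemokines and cytokines, which are not all particular to macrophages, had more genes below 0 than above in the scaling used here. Of 21 chemokines and cytokines 8 were under the floor on both arrays, 10 were below 0 and 3 above; 2 were lower and none higher by 2-fold or more. Osm, oncostatin M, had signals of 414 in null-labelled and 1028 in wild-type palate and was 2.48-fold lower, Ccl24 was at least 2.37-fold lower (204 in null-labelled and 680 in wild-type palate), and Vegfa, the vascular growth factor that many cells make, had -0.98, with its other probe set under the floor on both arrays. Of 14 antigen presentation genes 2 were under the floor on both arrays, 6 were below 0 and 6 above, and 2 were higher and none lower by 2-fold or more. Of the class II genes, H2-Aa had 773 in null-labelled and 818 in wild-type palate. The other probe sets of H2-Aa had a median of 0, with 1 below 0 and 1 above. H2-Ab1 had 727 in null-labelled and 782 in wild-type palate, and its other probe sets were under the floor on both arrays. The higher genes were Batf3 (620 in null-labelled and 288 in wild-type palate, 2.15-fold; named after its values were seen) and Zbtb46 (705 in null-labelled and 351 in wild-type palate, 2.01-fold), which encode transcription factors found in dendritic cells. Of the 3 other probe sets of Zbtb46, 1 was above 0 and the rest were under the floor on both arrays. Its log2 ratio was 0.93 with the deposited scaling and 0.86 with scaling to the reference genes' median ratio. Of other dendritic cell genes in the list, Cd209a had -0.34, and Flt3 and Xcr1 were under the floor on both arrays.

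Markers of other cell types differed in how many passed 2-fold. Of 13 osteoclast markers 9 were below 0, with a median log2 ratio of -0.25 that turned to 0.037 with scaling to the reference genes' median signal. Oscar alone passed 2-fold, and the summed signal of the list was 106823 on the null-labelled array and 125595 in wild type. Tcirg1 had -0.57, Acp5 -0.51 and Atp6v0d2 -0.47 (-0.49 in its other probe set), and Mmp9, which neutrophils also make, had 0.08, with -0.37 in its other probe set. Of 10 mast cell markers 3 were under the floor on both arrays and none passed 2-fold: Tpsab1, a tryptase, had -0.81, Cpa3, a carboxypeptidase, -0.64, and Hdc, which makes histamine, 0.59, with 0.38 in its other probe set. Of 7 microglia markers 3 were under the floor on both arrays and none passed 2-fold, with Tmem119, which bone cells also express, at -0.43, Sall1 at 0.39 (its other probe set under the floor on both arrays) and Olfml3 at 0.04. Of 12 endothelial markers 3, or 25%, were lower by 2-fold or more, beside 2.83% of all genes (Tie1, Pecam1 and Robo4, named after their values were seen), and the summed signal was 18019 in null-labelled and 22641 in wild-type palate. Some endothelium makes Mrc1, and the part of these genes in its value was not tested. Of 13 lymphocyte markers 10 were under the floor on both arrays and 3 were below 0. Cd8a, a T cell co-receptor chain, had 559 in null-labelled and 4137 in wild-type palate, 7.40-fold lower. Its 4 other probe sets were under the floor on both arrays. Pax5, a B cell factor, was 1.99-fold lower and Cd3e had -0.56. All 3 genes were named after their values were seen.

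Over the 12 immune gene lists together, which held 228 genes besides the 10, 9 (3.95%) were lower and 4 (1.75%) higher by 2-fold or more, near the 2.83% and 2.41% of all genes. Of the 228 genes, 44 were under the floor on both arrays.

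**Figure D4:**
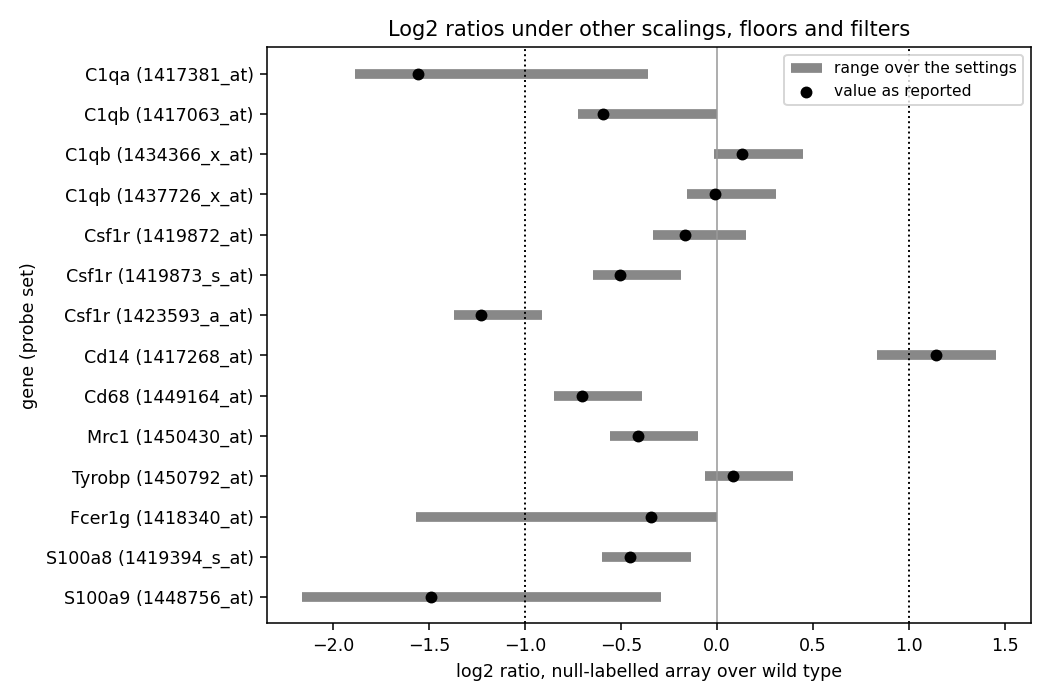
Log2 ratio (null-labelled array over wild type) of each of the 14 probe sets as reported (black points) and its range over the other scalings, floors and filters (grey bars), with dotted lines at 2-fold. The widest bars are those of S100a9 (-2.16 to -0.29), Fcer1g (-1.57 to 0) and C1qa (-1.88 to -0.36), the 3 genes that cross the floor, and Cd14 stays between 0.84 and 1.46.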

How the data were processed

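Biotin-labelled cRNA was made from 6 µg of palate total RNA and run on 1-colour Affymetrix arrays, per the labels' protocols. The deposited values are linear signal intensities, 1 for each of 45101 probe sets; per the submitters' processing notes, the authors used MAS5, whose version is not stated. The trimmed mean without 2% at either end was 1500.01 on both arrays. Detection calls were not used here.

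The 64 control probe sets were left out. Of the others, 34945 had 1 gene in the platform annotation, 932 several and 9160 none; only those of 1 gene were used, and 34741 of their gene identifiers were found in RefSeq (GRCm38.p6). Arrays were scaled to equal medians over the probe sets in the upper 50 percent of each array, which gave factors of 1.03 for the null-labelled array and 0.974 for wild type. Signals under the 40th percentile were set to it, and log2 was taken. No filter on signal was applied to the counts, and genes under the floor on both arrays count as 0.

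The number of arrays limits the precision, and counts past 2-fold replace a test. The 10 genes and all gene lists were chosen with earlier results of these data known. Named genes were the 10, their direct partners, and from each of 12 immune lists the 3 genes of largest absolute ratio with a signal at the 60th percentile or above on either array, plus the gene furthest the other way; others are marked, apart from targeted, sex-linked, epithelial and Lyz2 genes and those listed as under the floor, which were also outside it. Alternatives were other scalings, floors, filters, probe set rules and folds. Sums of a list without the gene of largest difference were added after seeing the data. The steps were tested on simulated data. The changed genes there were drawn from those passing the filter on the mean, which C1qa and S100a9 did not pass. Python 3.11.15, numpy 2.4.6, pandas 2.3.3 and matplotlib 3.10.9 were used. Sequences are RefSeq's.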

Additional observations from a re-analysis of the deposited data

How the results depend on the processing

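No paired analysis was possible because there is 1 array per genotype. Counts past 2-fold depended on the floor, the scaling and the filter. Of the 10 genes, those lower by 2-fold numbered 0, against 2, with the floor at the 60th percentile, with a filter on the mean of both arrays and with a 3-fold rule. Those higher by 2-fold numbered 0, against 1, with the floor at the 60th percentile, an added offset, scaling to the reference genes' median ratio and a 3-fold rule. With the floor at the 20th percentile or none, Fcer1g joined C1qa and S100a9 and gave 3 lower genes. In these settings 5.83% and 9.44% of all genes were lower, against 2.83%. Where none of the 10 was lower, the share of all genes was 1.45%, 2.97% and 0.72%, in the order given. Where none of the 10 was higher, that share was 1.41%, 1.34%, 1.48% and 0.31%, in the order given. Genes below 0 numbered 4 of 7 with the filter on the mean, against 7 of 10. The median of the 10 genes, -0.38, was -0.12 with scaling to the reference genes' median signal. That scaling shifted the median of all genes to 0.20 (a difference of -0.32). With the filter on the mean, which keeps 7 of the 10 genes, their median was -0.16, beside 0.073 over all genes kept. No probe set of the 10 genes that passed 2-fold changed sign under the other scalings, floors and filters. Floors and filters cannot turn the sign of a ratio, and the scalings shifted these ratios by less than the SD between probe sets. Ratios of single probe sets and medians of single lists moved by less than that SD (divided by the square root of the number of genes for a median) in 246 of 278 values. A filter leaves the ratio of a probe set as it was, so part of these values could not move.

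For the 228 other immune genes, the 9 lower became 14 with the deposited scaling, beside 3.43% of all genes. Percentages in brackets here are shares of all genes in the same setting. Scaling to the reference genes' median ratio gave 14 (4.11%) and scaling to their median signal 2 (1.45%). The floor at the 20th and 60th percentile gave 18 (5.83%) and 3 (1.45%). No floor gave 25 (9.44%), the offset 3 (1.80%) and the mean over probe sets 5 (1.65%). With the filter on the mean, 4 of the 107 immune genes kept were lower (2.97%). A 1.5-fold rule gave 33 (9.05%) and a 3-fold rule 1 (0.72%). The 4 higher became 7 with scaling to the reference genes' median signal, 9 with the floor at the 20th percentile, 16 with no floor, 13 with a 1.5-fold rule, 1 with the mean over probe sets or the filter on the brighter array, and 0 with scaling to their median ratio, the floor at the 60th percentile, the offset, the filter on the mean and a 3-fold rule. The median of the immune genes, 0, became 0.067 and -0.10 with scaling to the reference genes' median signal and median ratio. It was -0.076 with no floor and -0.042 with the offset. The filter on the brighter array gave -0.13 and that on the mean -0.12, beside 0.071 and 0.073 over all genes kept. A lower floor keeps more dim genes apart and a filter removes those at 0 by construction; the cause of the other moves was not tested.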
